A study of Mus musculus with 11 samples.

Results

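The genes described here are granulocyte colony-stimulating factor (G-CSF, encoded by Csf3), its receptor Csf3r, and 8 genes used as neutrophil markers: Cxcr2, Retnlg, Ly6g, Camp, Ngp, Ltf, Lcn2 and Trem1. They were chosen by symbol, and these 10 rows were found among the 45777 genes of the table. The rule uses no measured value, although the list was drawn up with earlier results of these data known. RNA was sequenced from the skin and small intestine of BALB/c mice that had received imiquimod (IMQ), a Toll-like receptor 7 ligand used to model psoriasis, or Vaseline as the vehicle. Per the labels, 62.5 mg of cream (5% IMQ, Aldara) was applied daily to shaved back skin and the right ear at 8 to 10 weeks of age, for 5 to 8 days in a row. The groups were control skin (replicates 1 to 3), IMQ-treated skin (replicates 4 to 6), small intestine of control mice (replicates 7 to 9) and small intestine of IMQ-treated mice (replicates 10 and 11). All mice were BALB/c of either sex with no engineered allele named, the sex of each library was not given, and the exact days of treatment and the skin site sampled were not given for each library. The labels do not say which libraries came from the same mouse, so p-values measure only the spread between these libraries. The questions were how topical IMQ changed these genes at the treated skin and in the untreated intestine, and whether the 2 tissues responded differently.

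G-CSF is the main cytokine that drives neutrophil production in bone marrow and their release into blood, and it acts through Csf3r on neutrophils and their precursors, with lower levels of the receptor on monocytes. Cxcr2 is the chemokine receptor by which mature neutrophils follow ELR-motif CXC chemokines into tissue. Neutrophil granules are filled in a fixed order during maturation in marrow. The genes for specific granule proteins (Camp, Ngp, Ltf and, in neutrophils, Lcn2) are transcribed in the marrow precursors and are largely silent in the mature cell, whereas Csf3r and Cxcr2 remain transcribed in mature cells. Lcn2 is also an acute-phase gene of epithelial cells, including keratinocytes, and lactoferrin is made by some glandular epithelia. In mouse skin, neutrophil collections in the epidermis are a known feature of the IMQ model, and in the healthy small intestine neutrophils are few.

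On GRCm38.p6, the members lie on 8 chromosomes, and 3 of them share chromosome 9. Csf3 is at chr11:98700183-98703631, Csf3r at chr4:126023441-126044975, Cxcr2 at chr1:74153994-74161246, and Trem1 at chr17:48232713-48246927. Lcn2 is at chr2:32384637-32387739, Retnlg at chr16:48872608-48874498 and Ly6g at chr15:75155261-75159128. Camp, Ngp and Ltf lie within 1195.4 kb of each other on chromosome 9, in the region that runs from 109847377 to 111042766. No 100-base stretch of the transcripts of 9 members occurred in the transcript of another gene, and for Csf3r 0.376% of such stretches did (shared with AC105061.2). Trem1 overlaps a pseudogene, AC241601.2, on the opposite strand. The overlap is one of gene spans, since no 100-base stretch of the Trem1 transcripts, on either strand, occurred in the transcript of another gene. Whether counting used strand is not given in the sources used here.

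The sequences before the start sites are shown for 4 genes as examples. Cxcr2 and Trem1 were higher in every IMQ-treated skin library than in every control skin library, as were Csf3r, Retnlg and Lcn2, and Ngp and Ltf were high in the same single skin library, as was Camp. RefSeq promoter windows (250 bases before the start, GRCm38.p6) were found for 9 of the 10 members, the exception being Csf3, and each is printed only as far as it holds no annotated exon of its gene. Capitals mark matches, on either strand, to GAGGAA (PU.1, a myeloid factor), TTGCNNAA (C/EBP, the family that includes the granule gene activator C/EBP-epsilon) or TTCNNNGAA (STAT).
Cxcr2, chr1:74153744-74153988, plus strand: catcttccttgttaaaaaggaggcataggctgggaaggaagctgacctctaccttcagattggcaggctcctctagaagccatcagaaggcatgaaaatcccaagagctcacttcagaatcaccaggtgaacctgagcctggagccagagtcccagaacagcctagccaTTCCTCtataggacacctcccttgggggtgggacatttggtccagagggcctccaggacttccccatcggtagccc
Trem1, chr17:48232489-48232712, plus strand: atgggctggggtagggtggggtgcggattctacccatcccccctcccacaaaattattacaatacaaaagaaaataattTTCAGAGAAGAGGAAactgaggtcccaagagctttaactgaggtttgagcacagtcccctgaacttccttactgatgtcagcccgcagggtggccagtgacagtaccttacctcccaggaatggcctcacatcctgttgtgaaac
Ngp, chr9:110419558-110419746, plus strand: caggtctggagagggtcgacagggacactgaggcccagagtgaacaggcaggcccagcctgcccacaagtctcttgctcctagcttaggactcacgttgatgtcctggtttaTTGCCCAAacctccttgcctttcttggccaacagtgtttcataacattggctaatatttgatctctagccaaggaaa
Ltf, chr9:111019042-111019270, plus strand: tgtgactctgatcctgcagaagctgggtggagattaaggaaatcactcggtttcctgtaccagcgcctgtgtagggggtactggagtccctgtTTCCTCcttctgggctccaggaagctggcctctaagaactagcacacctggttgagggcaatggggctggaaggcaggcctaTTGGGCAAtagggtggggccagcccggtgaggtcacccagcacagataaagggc
The Cxcr2 window held a PU.1 match 81 to 76 bases before the start. In Trem1 a STAT match (171 to 163 bases before the start) was followed directly by a PU.1 match (162 to 157). The same 8 letters of a C/EBP match, TTGGGCAA, were found 75 to 68 bases before the start of Ltf and, in the part of the window not printed, 11 to 4 bases before that of Ngp. Ltf also held a PU.1 match (157 to 152 bases before its start) and Ngp another C/EBP match (138 to 131). The Camp window held no match to any of the 3 motifs. Among the windows not printed, that of Csf3r held a PU.1 match, that of Retnlg a C/EBP match and no PU.1 match, and those of Lcn2 and Ly6g both kinds. The Csf3r match (86 to 81 bases before the start) lay past the first annotated exon base, in a window inside the gene span. The Lcn2 matches also lay past the first annotated exon base of that gene. Of all 32851 promoter windows of this length, 23.3% held the PU.1 letters, 9.6% the C/EBP letters and 7.0% the STAT letters. Such letters are common, and a match describes the sequence and not a bound site.

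Each library held between 44995414 and 58526384 counts over genes, so that 1 count was a similar share of every library. The tissue labels were borne out by marker genes: the summed level of 7 keratinocyte markers was at least 5013 FPKM in skin and at most 1.45 FPKM in small intestine. One library stood apart. Control skin replicate 2 held transcripts of 8 intestinal epithelial markers, whose median share of the control intestinal level was 1.25%, against at most 0.0461% in any other skin library. Results in skin are therefore also given without it. Because whole tissue was sequenced, fewer cells of a type and less RNA per cell cannot be told apart for any gene below.

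In IMQ-treated skin the receptor genes and lipocalin 2 rose. Of the 10 members, 5 had a count in every skin library and could be tested in the main fit of edgeR, and 4 of them rose (Csf3r, Cxcr2, Retnlg and Lcn2), where 4.05% of the 20512 genes tested rose. Each of these 4 was also called without control replicate 2. When genes with a 0 in some library were kept, Csf3 and Trem1 also passed, Retnlg did not, and 5 of 10 members rose, against 2.39% of 29186 genes. For 6 members every IMQ-treated library was above every control library (Csf3, Csf3r, Cxcr2, Retnlg, Lcn2 and Trem1), which was true of 12% of genes with any count. Of the members, 6 were tested in small intestine and 1, Csf3r, rose, where 2.77% of 19965 genes rose. Csf3r and Lcn2 were higher in both libraries of IMQ-treated mice than in all 3 control libraries there, as were 13.4% of genes with any count. No member was called lower in either tissue, where 2.69% of genes in skin and 0.17% in small intestine were.

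**Figure D1:**
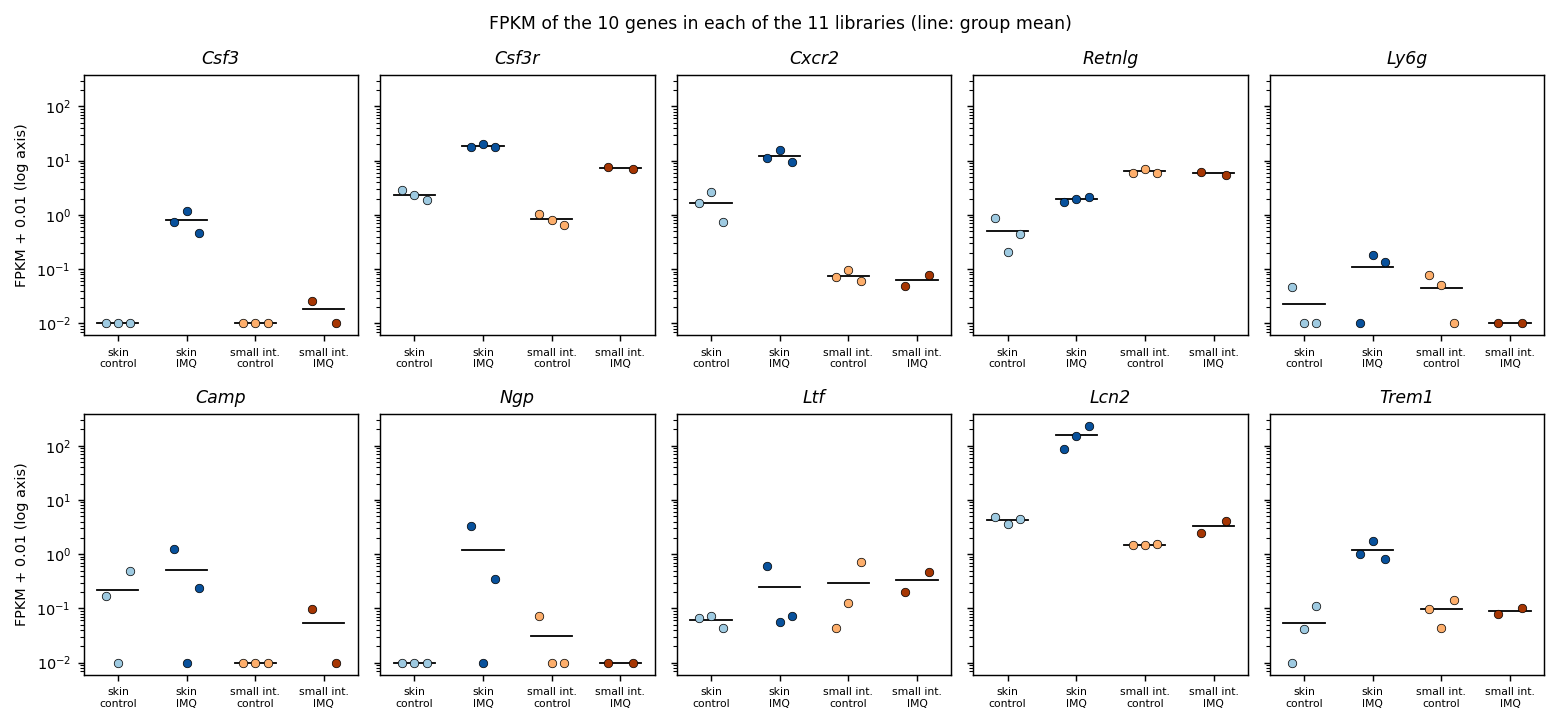
FPKM plus 0.01 on a log axis for each of the 10 genes in all 11 libraries, 1 point per library, with a line at the mean of each group (small int., small intestine). Csf3r and Lcn2 are the genes whose IMQ points all lie above the control points in both tissues, Lcn2 reaches 235 FPKM in IMQ-treated skin, and Retnlg is highest in the small intestine.

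The ligand was detected almost exclusively in treated skin. Csf3 had 0 counts in all 3 control skin libraries and 56, 91 and 37 counts in IMQ-treated skin replicates 4, 5 and 6. The intestinal libraries had 0 counts in all 3 control mice, 3 in replicate 10 and 0 in replicate 11. The skin groups did not overlap, whereas a count of 3 in 1 intestinal library is at the limit that a count of 0 allows. Taking 3 counts as the floor of each control library, the mean of 64.7 ± 27.3 normalized counts (SD, n = 3) in IMQ-treated skin was at least 21.6-fold higher, and the lowest IMQ-treated library was at least 13.1-fold higher. The edgeR fit without a filter on low counts gave an adjusted p of 0.0114, which was 0.0124 without control replicate 2, 0.0509 without IMQ replicate 4 and 0.0530 without IMQ replicate 5. Of 7 other models 6 called Csf3, and limma on log2(FPKM + 1) did not (adjusted p = 0.0618). The level per length in treated skin was 0.782 ± 0.358 FPKM, at rank 14857 of 26793 genes with a mean FPKM above 0 in IMQ-treated skin.

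Cytokines, receptors and regulators of the pathways known to induce Csf3 in epithelial and stromal cells were followed as a list of 13. In skin, 6 of the 10 tested rose and none fell, led by Il1b, the inflammasome-processed cytokine (337 ± 97.5 to 2403 ± 662 normalized counts, log2 fold change 2.84 ± 0.28 SE, adjusted p = 0.00432), and Zc3h12a, an RNase that degrades cytokine transcripts and so restrains these pathways (2.76 ± 0.24). Il23a, a subunit of interleukin 23 (log2 fold change 2.49 ± 0.53), and Nfkbiz, a nuclear co-activator downstream of interleukin 17 (1.92 ± 0.34), rose as well. The median log2 fold change of the list was 1.57, against -0.01 for all genes tested. The count of 6 became 3 without IMQ replicate 4 and 7 without control replicate 2. For this and the other lists, skin counts are given without these libraries only, and the share of all genes called in such fits is not given. A lower count does not single out replicate 4, since a fit with fewer libraries can lose calls. Of the members, 4 were called with all skin libraries and 2 without IMQ replicate 4 or without IMQ replicate 5. The interleukin 17 genes, like Csf3, were at 0 in every control skin library. Il17a had 80, 71 and 243 counts and Il17f had 118, 111 and 554 counts in IMQ-treated replicates 4, 5 and 6, and both passed the fit without a filter (adjusted p = 0.0187 and 0.0291). The library with the most Il17a and Il17f, replicate 6, was the one with the fewest Csf3 counts. Small intestine showed 1 rise among 9 tested genes of the list, Il1b (259 ± 69.7 to 2310 ± 1366, log2 fold change 3.16 ± 0.38, adjusted p = 0.00519), and the list median was 0.05. Il17a had 4, 11 and 9 counts in control and 5 and 0 in IMQ-treated small intestine, so that it was near the floor in both groups.

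The receptor rose in both tissues. Csf3r had 591, 417 and 429 counts in control skin and 3287, 4033 and 3246 in IMQ-treated skin. Intestinal counts were 207, 167 and 145 in control mice and 1811 and 1439 in IMQ-treated mice. In each tissue the lowest IMQ-treated library was several times the highest control library. After scaling within each tissue, the mean went from 454 ± 80.4 to 3727 ± 372 normalized counts in skin (log2 fold change 3.04 ± 0.17 SE, edgeR adjusted p = 0.000774) and from 176 ± 45.7 to 1620 ± 34.2 in small intestine (3.21 ± 0.23, adjusted p = 0.000486, n = 3 and 2). Per length, the order of the mean levels was IMQ-treated skin (18.8 FPKM), IMQ-treated small intestine (7.38 FPKM), control skin (2.36 FPKM) and control small intestine (0.820 FPKM), and no neighbors in this order overlapped. The call held in each of the 6 skin and 5 intestinal fits that left out 1 library. The difference between the 2 responses was 0.18 ± 0.28 SE on the log2 scale (adjusted p = 0.818), which does not show that they were equal.

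**Figure D2:**
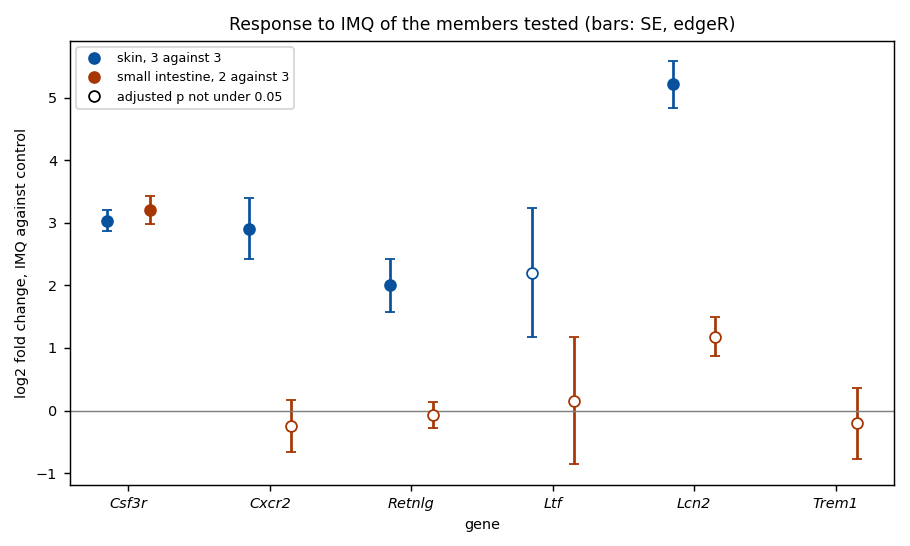
Log2 fold change of IMQ against control (points) with its standard error (bars) from the edgeR fits, for the members that had a count in every library of the tissue. Filled points had an adjusted p under 0.05: Csf3r in both tissues, and Cxcr2, Retnlg and Lcn2 in skin. The other points are open.

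Molecules that act below Csf3r were followed as a list of 16. In skin 5 of 15 tested rose and none fell: Lyn, a Src-family kinase bound to the receptor (log2 fold change 1.80 ± 0.16), Socs3, the feedback inhibitor of this receptor (1.52 ± 0.19), Spi1, which encodes PU.1 (1.25 ± 0.16), Ptpn6, a phosphatase (1.18 ± 0.21), and Stat3, the main transducer of the signal (0.74 ± 0.15). Small intestine had 3 of 16 higher, Spi1 (2.43 ± 0.23), Ptpn6 (1.86 ± 0.18) and Lyn (1.33 ± 0.15). Socs3 there had a log2 fold change of 0.80 ± 0.37 (adjusted p = 0.464) and Stat3 of 0.08 ± 0.16 (adjusted p = 0.911). Cebpe, the activator of specific granule genes, was not called in either tissue, with 25.8 ± 22.6 and 2.83 ± 4.90 normalized counts in control and IMQ-treated skin and 61.1 ± 29.8 and 24.9 ± 8.50 in small intestine. The list medians were 0.33 in skin and 0.20 in small intestine, against -0.01 and -0.02 for all genes tested. Without IMQ replicate 4 the skin count was 3.

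Some myeloid genes that are not restricted to neutrophils rose beside Csf3r. Of 10 monocyte and macrophage markers, 4 rose in skin and 5 in small intestine and none fell, and their summed level went from between 302 and 415 FPKM in control skin to between 725 and 929 FPKM in IMQ-treated skin. The intestinal sum went from between 171 and 257 FPKM to between 773 and 861 FPKM. None of the 10 was at 0 throughout any group. Among them, C1qb, a complement subunit of macrophages, had log2 fold changes of 1.59 ± 0.19 in skin and 2.83 ± 0.23 in small intestine, and Adgre1, which encodes F4/80, had 2.88 ± 0.32 and 2.16 ± 0.22. In skin 6 of the 10 were not called, among them Csf1r (0.40, adjusted p = 0.333) and Ly6c2 (0.18, adjusted p = 0.668). The part of monocytes and macrophages in the Csf3r result was not tested. Receptors for other colony-stimulating factors rose as well: Csf2rb, the common beta chain, had log2 fold changes of 1.0 ± 0.20 in skin and 1.25 ± 0.18 in small intestine, and Csf2ra rose in small intestine (1.35 ± 0.17). In that list of 9 genes, 2 of 8 tested rose in skin (0 without IMQ replicate 4) and 3 of 8 in small intestine (1 without control replicate 9).

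Cxcr2 rose in skin. It had 291, 413 and 131 counts in control skin and 1792, 2594 and 1482 in IMQ-treated skin, so the groups did not overlap, although the control libraries differed widely among themselves. Intestinal counts were 11, 15 and 10 in control mice and 8 and 12 in IMQ-treated mice, and the groups overlapped. The mean went from 276 ± 168 to 2066 ± 556 normalized counts in skin (log2 fold change 2.91 ± 0.49, adjusted p = 0.0211) and from 12.1 to 10.3 in small intestine (-0.25, adjusted p = 0.893). The skin call was lost without control replicate 1 (adjusted p = 0.0906), IMQ replicate 4 (0.0622) or IMQ replicate 5 (0.0840), and held without control replicate 2 (0.00985). For the difference between tissues the estimate was -3.14 ± 0.86 (adjusted p = 0.0904), and without control skin replicate 2 it was -3.72 (adjusted p = 0.0160), without replicate 3 -2.75 (adjusted p = 0.0427). It was also called by the Wald test of DESeq2 (adjusted p = 0.00131) and by limma on log2(FPKM + 0.01) (0.0308) and log2(FPKM + 1) (0.0135), and not by limma-voom (0.0971). Per length, Csf3r and Cxcr2 stood at 18.8 and 12.3 FPKM in IMQ-treated skin, and at 7.38 and 0.0533 FPKM in IMQ-treated small intestine. The G-CSF receptor was thus higher in the treated intestine beside very little transcript of the chemokine receptor.

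Ligands of Cxcr2 were followed as a list of 6. In skin both that could be tested rose: Cxcl5, made largely by epithelium (3, 2 and 7 counts in control and 158, 606 and 664 in IMQ-treated libraries, log2 fold change 7.01 ± 0.74, adjusted p = 0.00499), and Cxcl1, made by epithelium and stroma (53, 41 and 32 against 689, 686 and 611, log2 fold change 4.13 ± 0.26, adjusted p = 0.00129). Cxcl2, also made by myeloid cells, had 0, 7 and 35 counts in control and 437, 732 and 152 in IMQ-treated skin, and the fit without a filter gave an adjusted p of 0.0541. Of 4 ligands tested in small intestine 1 rose, Cxcl1, from 6, 13 and 11 counts to 38 and 37 (log2 fold change 1.91 ± 0.37, adjusted p = 0.0437, and 0.0841 without the filter), a call that was lost without control replicate 9. Cxcl5 there had a log2 fold change of 0.54 ± 0.42 and Cxcl2 of 0.33 ± 0.55, neither called. All ligands together summed to at most 1.24 FPKM in control skin, at least 24.1 FPKM in IMQ-treated skin and at most 1.65 FPKM in any intestinal library. Of 4 genes of the axis that holds neutrophils in marrow or on vessel walls, 1 was called in each tissue (in skin 0 without IMQ replicate 4). Vcam1, an endothelial adhesion molecule, rose in skin (1.19 ± 0.26), and Itga4, a chain of its receptor on leukocytes, rose in small intestine (0.88 ± 0.11).

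Trem1, a receptor on neutrophils and monocytes that amplifies inflammatory signals, was higher in treated skin. It had 0, 6 and 20 counts in control skin and 156, 279 and 123 in IMQ-treated skin, and in small intestine 16, 7 and 30 counts in control mice and 13 and 17 in IMQ-treated mice. The skin groups did not overlap and the intestinal groups did. The mean went from 7.99 ± 8.81 to 196 ± 81.3 normalized counts in skin, a ratio of 24.5, and the fit without a filter gave a log2 fold change of 4.58 (adjusted p = 0.0455). This call was lost without any 1 of the 3 IMQ-treated libraries (adjusted p between 0.0938 and 0.176), and held without control replicate 2 (0.0495). In small intestine the main fit gave -0.20 (adjusted p = 0.942). Of 13 genes of the Trem family and its signaling, 4 of 11 tested rose in skin (2 without IMQ replicate 4) and 5 of 10 in small intestine. Tyrobp, the adaptor (DAP12) through which Trem1 signals, rose in both tissues (1.53 ± 0.15 in skin and 2.004 ± 0.21 in small intestine), as did the kinase Syk (1.30 ± 0.16 and 2.48 ± 0.14) and Treml4, a family member of myeloid cells (3.18 ± 0.59 and 2.93 ± 0.27). In the intestine, adaptor and kinase were higher with IMQ while Trem1 itself was at most 30 counts in every library.

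Ly6g, the surface antigen by which mouse neutrophils are usually identified, was close to the floor throughout. It had 3, 0 and 0 counts in control skin, 0, 9 and 6 in IMQ-treated skin, 4, 3 and 0 in control small intestine and 0 and 0 in IMQ-treated small intestine. No library passed 10 counts and the groups overlapped, so no difference was detectable at this depth. IMQ-treated skin replicate 4, for example, had 0 counts of Ly6g beside 1792 of Cxcr2. In the Ly6 family list of 11 genes, none of 8 tested was called in skin by edgeR, 2 had an unadjusted p under 0.05 (both lower), and DESeq2 and limma-voom called 0. Without control replicate 2, 1 of the 8 was called lower. In small intestine 1 of 7 rose, the interferon-induced Ly6e (1.40 ± 0.24), a call lost without control replicate 9.

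The granule genes Camp, Ngp and Ltf, which are made in marrow precursors, were not called in skin. Camp, which encodes cathelicidin, had 6, 0 and 17 counts in control skin and 40, 0 and 7 in IMQ-treated skin. Ngp, a cystatin-like granule protein, had 0, 0 and 0 counts in control and 198, 0 and 21 in IMQ-treated skin. Ltf, which encodes lactoferrin, had 10, 9 and 6 counts in control and 87, 7 and 9 in IMQ-treated skin. For all 3 the groups overlapped, and one library, IMQ replicate 4, held most of the counts of the treated group. The tests gave an adjusted p of 0.262 for Ltf (log2 fold change 2.20 ± 1.03) and, without a filter, 0.660 for Camp and 0.204 for Ngp. Without IMQ replicate 4 the log2 fold change of Ltf was 0.07 and that of Camp -0.87. In small intestine Camp and Ngp did not pass 4 counts in any library, and Ltf had 6, 18 and 127 counts in control mice and 33 and 70 in IMQ-treated mice (log2 fold change 0.16, adjusted p = 0.978), with 1 control library, replicate 9, above both IMQ-treated libraries.

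The 3 chromosome 9 genes were then compared with the other members within IMQ replicate 4, a description chosen after the values were seen. This is the library where these genes peak, and the cut of 40 counts was set on it and equals its Camp count. High ranks of these genes were thus to be found by construction, and the ranks are no test. Among 15898 genes with at least 40 counts in that library, ordered by the ratio of its normalized count to the highest of the other 5 skin libraries, Ngp was the 2nd (9.72 times), Ltf the 3rd (9.69 times) and Camp the 10th (2.95 times). Csf3r was at rank 6600 (0.866 times), Cxcr2 at 10287 (0.734 times) and Lcn2 at 14966 (0.394 times). The library that stood out for the precursor granule genes was thus the lowest of the 3 treated libraries for Lcn2.

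**Figure D3:**
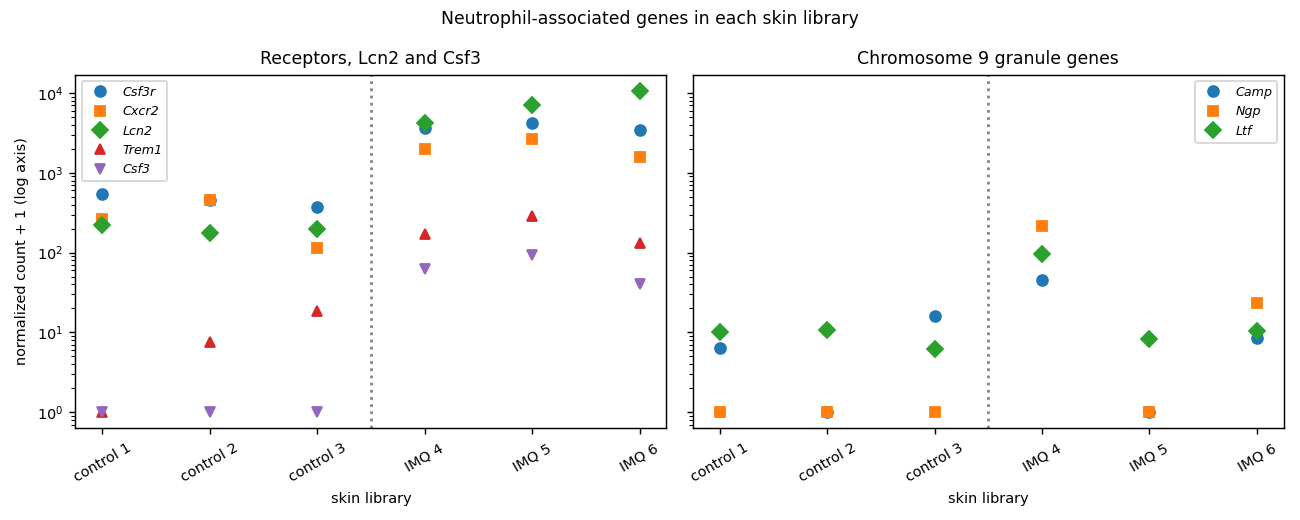
Normalized count plus 1 on a log axis in each of the 6 skin libraries (dotted line between control 1 to 3 and IMQ 4 to 6), with Csf3r, Cxcr2, Lcn2, Trem1 and Csf3 on the left and Camp, Ngp and Ltf on the right. The left-hand genes are higher in all 3 IMQ-treated libraries, while the right-hand genes peak in IMQ 4 (216 normalized counts of Ngp) and are near control levels in IMQ 5.

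Other granule genes were followed as a pair of lists. Of 6 azurophil granule genes, the earliest to be made, 1 of 4 tested rose in skin, Ctsg (cathepsin G, also made by mast cells, 1.63 ± 0.27), a call lost without IMQ replicate 4. Mpo, which encodes myeloperoxidase, had 190, 264 and 57 counts in control skin and 43, 20 and 31 in IMQ-treated skin (log2 fold change -2.34 ± 0.65, adjusted p = 0.0851), and Elane, which encodes neutrophil elastase, had 9.26 ± 2.84 and 10.96 ± 0.691 normalized counts. Of 5 mast cell markers 3 also rose in skin (1 without IMQ replicate 4 and 5 without control replicate 2), with a summed level between 112 and 138 FPKM in control and between 198 and 235 FPKM in treated libraries, and their part in the Ctsg value was not tested. Genes of the later specific and gelatinase granules, 8 in the list, rose in 5 of 7 tested cases in skin: Chil3 (4.87 ± 0.48), Mmp8, which encodes neutrophil collagenase (27, 12 and 35 counts against 276, 201 and 250, 3.49 ± 0.36, adjusted p = 0.00456), Itgam, the CD11b chain shared with macrophages (2.94 ± 0.26), and Cd177 (2.03 ± 0.34), with Mmp9 as the remaining call (1.72 ± 0.36). Without IMQ replicate 4 the count was 3. Of 6 tested in small intestine 2 rose, Itgam (1.88 ± 0.11) and Mmp8 (4, 4 and 4 counts against 14 and 15, 1.83 ± 0.35, adjusted p = 0.0425, and 0.317 without the filter), and Mmp9, gelatinase B, fell (-1.34 ± 0.23, adjusted p = 0.0261). Cd177 (-1.40 ± 0.40, adjusted p = 0.167) and Olfm4 (-0.56 ± 0.19, adjusted p = 0.263) were also lower in both IMQ-treated libraries than in every control library. The balance of the list depended on the test, since DESeq2 called 1 gene higher and 3 lower, and without control replicate 9 edgeR called 1 higher and 1 lower.

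Lcn2, an iron-scavenging protein that binds bacterial siderophores, showed the largest log2 fold change in skin among the 5 members that had a count in every library. It had 242, 161 and 227 counts in control skin and 3860, 6937 and 10097 in IMQ-treated skin. The intestinal counts were 67, 69 and 86 counts in control mice and 135 and 192 in IMQ-treated mice. Neither pair of groups overlapped. The skin mean went from 197 ± 21.7 to 7353 ± 3250 normalized counts (log2 fold change 5.22 ± 0.37, adjusted p = 0.00218), and the call held without each library in turn. In small intestine it went from 73.9 ± 5.04 to 168 ± 63.9 (1.18 ± 0.31, adjusted p = 0.130), which the Wald test of DESeq2 called (adjusted p = 0.0136), and that test called 6.04% of all genes there. At 158 ± 74.2 FPKM in IMQ-treated skin, Lcn2 ranked 381 of 26793 genes and made up 81.0% of the summed FPKM of the 10 members. Of 5 genes of lipocalin uptake and iron handling, Slc11a1, a metal transporter of the phagosome, rose in both tissues (2.57 ± 0.19 in skin and 3.82 ± 0.15 in small intestine). Slc22a17, a lipocalin 2 receptor, fell in skin (-0.85 ± 0.18, adjusted p = 0.0379), a call lost without IMQ replicate 4.

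Retnlg, a resistin-like gene used as a marker of mouse neutrophils, had its highest level in the small intestine. It had 30, 7 and 16 counts in control skin, 56, 64 and 67 in IMQ-treated skin, 196, 234 and 235 in control small intestine, and 242 and 182 in IMQ-treated small intestine. The skin groups did not overlap and the intestinal groups did. The mean went from 16.2 ± 9.96 to 66.0 ± 4.93 normalized counts in skin (log2 fold change 2.0 ± 0.43, adjusted p = 0.0416), and from 222 to 211 in small intestine (-0.07, adjusted p = 0.943). The skin call was close to the threshold: it was lost in 4 of the 6 fits without 1 library (control replicate 3 or any of the 3 IMQ-treated libraries, adjusted p up to 0.142) and without the filter (0.0611), and held without control replicate 2 (0.0338). It was also lost with limma on log2(FPKM + 0.01) (adjusted p = 0.0531). Per length, Retnlg made up 69.3% of the members' summed FPKM in control small intestine (6.31 FPKM) and 5.36% in control skin (0.492 FPKM). In control small intestine Cxcr2 stood at 0.0663 FPKM and Ly6g at 0.0355 FPKM, so Retnlg did not follow these neutrophil markers there. Which intestinal cells held the Retnlg transcript was not tested. Of the other resistin genes tested in skin, Retnla had a log2 fold change of -2.78 (adjusted p = 0.143) and Retn, resistin, of -0.38 (adjusted p = 0.287), and neither was called.

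By edgeR, the response differed between tissues for Lcn2 and Retnlg, whereas the Cxcr2 difference given above was called by some of the other models only. In the edgeR interaction test on 18108 genes, 2 of the 5 members tested were called, both with the smaller log2 fold change in small intestine, where 0.856% of genes were called in that direction. The difference, small intestine minus skin, was -4.04 ± 0.49 for Lcn2 (adjusted p = 0.00318) and -2.07 ± 0.47 for Retnlg (adjusted p = 0.0457). The Retnlg call held in 2 of the 11 fits without 1 library, those that left out control skin replicate 1 or 2, and was lost with filterByExpr, without a filter and with limma on log2(FPKM + 0.01). For Ltf it was -2.03 ± 1.66 (adjusted p = 0.598). For Trem1, in the fit without a filter, it was -4.77 (adjusted p = 0.107, and 0.00261 by DESeq2 and 0.0386 by limma on log2(FPKM + 1)), and for Csf3 it could not be estimated because it was at 0 in every control library of both tissues. The interaction shares its libraries with the comparisons above and adds no independent samples.

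Control tissues differed in all 5 members that could be tested, where 51.9% of 18890 genes differed. Csf3r (log2 difference, small intestine minus skin, -1.04 ± 0.26, adjusted p = 0.0117), Cxcr2 (-4.18 ± 0.58, adjusted p = 0.000633) and Lcn2 (-1.08 ± 0.22, adjusted p = 0.00433) were lower in control small intestine. Retnlg was higher there (4.09 ± 0.42, adjusted p = 0.000136). Ltf was also called higher (2.91 ± 1.01, adjusted p = 0.0430), although its groups overlapped, without a filter the adjusted p was 0.0602, and 2 of 6 fits without 1 library called it. Against that background, the count is not a result about the members.

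Other genes typical of mature neutrophils were followed as a list of 17. Of these, 10 of 14 tested rose in skin and 1 fell, with a median log2 fold change of 3.40. S100a8 and S100a9, the calprotectin subunits, which activated keratinocytes also make, had 63, 32 and 116 and 171, 184 and 201 counts in control skin. With IMQ these became 69741, 79344 and 61716 for S100a8 (log2 fold change 10.16 ± 0.48, adjusted p = 0.000539) and 116369, 133494 and 102601 for S100a9 (9.46 ± 0.26, adjusted p = 7.6e-05). The formyl peptide receptors Fpr1 (6.98 ± 0.54) and Fpr2 (4.68 ± 0.44) rose next, and Padi4, which citrullinates histones, fell (-1.35 ± 0.30, adjusted p = 0.0442). Without IMQ replicate 4 or without control replicate 2, 10 genes of the list rose and none fell. Cxcr1 had 0 counts in every control skin library and 10, 12 and 21 in IMQ-treated skin.

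Small intestine had 3 of 9 tested genes of this list higher: Fpr1 (9, 10 and 30 counts against 743 and 1085, log2 fold change 5.85 ± 0.48, adjusted p = 0.000858), Fpr2 (20, 34 and 51 against 2449 and 1592, 5.84 ± 0.30, adjusted p = 0.000195) and Slfn4 (2.0 ± 0.36). S100a9 had 14, 2 and 14 counts in control mice and 36 and 57 in IMQ-treated mice (2.24 ± 0.64, adjusted p = 0.164), and S100a8 had 6, 0 and 5 against 7 and 11. Stfa2l1 and Cxcr1 were at 0 in all 5 intestinal libraries, while Trem3 had 13, 6 and 0 counts in control mice and 116 and 111 in IMQ-treated mice. The other 6 genes tested in small intestine were not called. The list summed to between 56.0 and 68.9 FPKM in control mice and between 85.6 and 92.1 FPKM in IMQ-treated mice. The part of monocytes and macrophages in the values of this list was not tested. Eosinophil markers, 6 in number, summed to at most 3.32 FPKM in any group. Of these, 2 could be tested in skin and 4 in small intestine, and none was called by edgeR (0 at an unadjusted p under 0.05), DESeq2 or limma-voom. Epx, which encodes eosinophil peroxidase, had 0, 0 and 2 counts in control skin and 24, 10 and 0 in control small intestine. It had 0 in every IMQ-treated library of both tissues (adjusted p = 0.535 and 0.414 without a filter). The study reported eosinophils as the most abundant immune cells of wild-type small intestine, so low Epx counts do not show their absence. By flow cytometry it also reported markedly fewer eosinophils and more neutrophils in small intestine after IMQ. Those are cell numbers, whereas the values here are RNA of whole tissue.

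**Figure D4:**
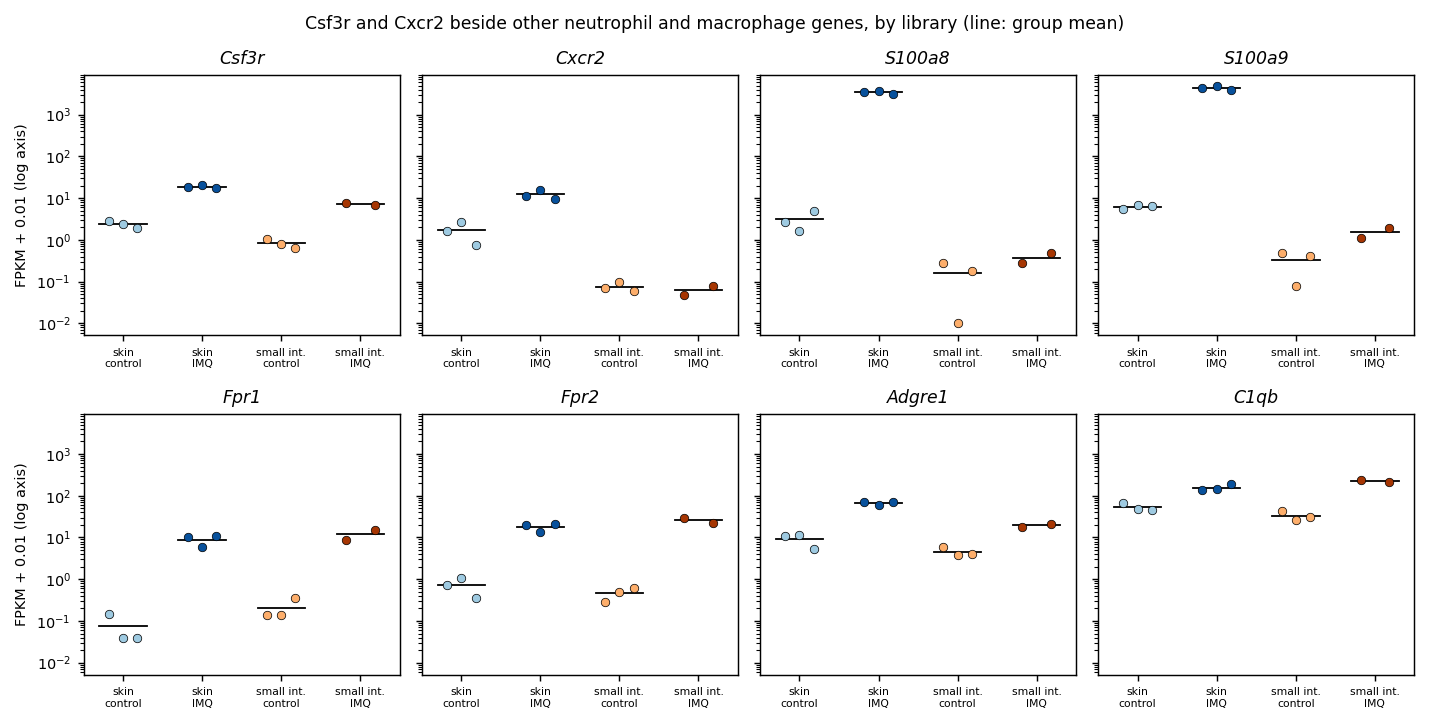
FPKM plus 0.01 on a log axis, 1 point per library with a line at each group mean. Shown are Csf3r and Cxcr2 (members), S100a8, S100a9, Fpr1 and Fpr2 (from the list of genes typical of mature neutrophils) and Adgre1 and C1qb (macrophage markers). In the small intestine Csf3r, Fpr1, Fpr2, Adgre1 and C1qb are higher with IMQ, while Cxcr2 stays at or below 0.0875 FPKM and S100a9 reaches at most 1.94 FPKM against at least 3885 FPKM in IMQ-treated skin.

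Erythroid transcripts also rose in treated skin, with 2 of 5 tested hemoglobin and red cell genes called (5 at an unadjusted p under 0.05, 5 by DESeq2, 0 by limma-voom, 5 by edgeR without IMQ replicate 4) and a summed level between 111 and 214 FPKM in control and between 292 and 775 FPKM in IMQ-treated libraries. The part of blood held in the sampled tissue in the skin values of the members was not tested. T cell markers, 6 in number, were not called in either tissue by edgeR. In skin 3 of them had an unadjusted p under 0.05, all higher, and DESeq2 called 3 and limma-voom 0, and in small intestine 1 had (lower), with 0 called by either tool. Of 7 keratinocyte markers 1, Krt14, rose in skin (1.41 ± 0.31), a call lost without control replicate 2 or IMQ replicate 4.

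The genes whose levels over the 11 libraries were most like those of 3 members were taken from 16178 genes by Pearson's r of log2(FPKM + 1), as a description over libraries that share tissue and treatment. For Csf3r they were Myd88, an adaptor of Toll-like receptors (r = 0.997), Clec12a (0.993), Pira2 (0.992), Pira1 (0.991) and AB124611 (0.987). Clec12a, an inhibitory receptor of myeloid cells, had mean levels of 1.46 and 12.5 FPKM in control and IMQ-treated skin and 0.525 and 4.62 FPKM in small intestine, close to the Csf3r pattern of 2.36, 18.8, 0.820 and 7.38 FPKM. For Lcn2 the 5 were 5830411N06Rik (0.990), S100a9 (0.988), Cxcl1 (0.987), Chil3 (0.986) and S100a8 (0.986), all highest in IMQ-treated skin. For Retnlg they were Tmem8 (0.989), Ankrd13a (0.981), Il10rb (0.980), Rnpep (0.980) and B4galnt1 (0.980), which were higher in small intestine than in skin. Pira1 and Pira2 belong to a family of near-identical genes, so that their separate counts are uncertain.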

How the data were processed

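Skin (3 control and 3 IMQ-treated libraries) and small intestine (3 and 2) of BALB/c mice were sequenced as paired 100-base reads from a stranded mRNA kit. Per the labels and the study's methods, the authors used bcl2fastq 2.20.0, Trimmomatic, HISAT2 2.1.0 on mm10 and StringTie 2.1.3b, and deposited whole-number counts, FPKM and TPM for 45777 genes (TPM was not used here). The tool behind the counts and its strand setting are not given in the sources used here, and 0 sample columns were left unused. FPKM as deposited by the authors were used only for levels and for alternatives.

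Counts were tested with the quasi-likelihood F test of edgeR 4.0.16 (R 4.3.3) over all genes with at least 1 count in every library of the comparison, with relative log expression factors and Benjamini-Hochberg adjustment, and genes were called at an adjusted p under 0.05. This adjustment applies to every adjusted p in the text unless another tool is named. Standard errors are the log2 fold change divided by the square root of F. Normalized counts were scaled within each tissue. Members with a 0 in some library and at least 10 counts in another were tested in the fit without the filter. Floors of 3 counts per library cover counting error only. The main edgeR fit of each comparison was tested on simulated counts, and the fit without the filter and the other alternatives were not. The alternatives were TMM, DESeq2 1.42.0, limma-voom (limma 3.58.1), filterByExpr, no filter, limma on log2(FPKM + 0.01) and log2(FPKM + 1), 1 fit of all 11 libraries, and each library left out.

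All 10 members were named. From each other list, counts were given with up to 4 called genes of the largest absolute log2 fold change per tissue, and Il17a, Il17f, Il1b, Cxcl1, Cxcl2, Cxcl5, Stat3, Socs3, Cebpe, Tyrobp, S100a8, S100a9, Mpo, Elane and Mmp8 were named wherever they stood. Other genes named with values (Trem3, Cxcr1, Stfa2l1 and the last call of a list of 5) were added after the values were seen. Padi4, Epx, Csf1r, Ly6c2, Retnla and Retn, and Cd177 and Olfm4 in small intestine, also fall outside these rules. The 5 most similar genes were taken for Csf3r, Retnlg and Lcn2 among genes with at least 1 FPKM in 2 or more libraries. Members and lists were chosen with earlier results of these data known. Promoters came from RefSeq and exons from GENCODE vM21.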

Additional observations from a re-analysis of the deposited data

Results flagged for a closer look

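The members Lcn2 and Retnlg responded differently to IMQ in the 2 tissues by the interaction test of edgeR. The log2 fold change of Lcn2 was smaller in small intestine than in skin by a difference of -4.04 ± 0.49 (adjusted p = 0.00318), and its counts were higher with IMQ in every library of both tissues. For Retnlg the difference was -2.07 ± 0.47 (adjusted p = 0.0457), with counts higher in 3 of 3 IMQ-treated skin libraries and overlapping in small intestine. The Lcn2 difference was called in 11 of 11 fits without 1 library and that of Retnlg in 2 of 11, so the latter rests on most single libraries.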

How the results depend on the processing

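Csf3r and Lcn2 in skin and Csf3r in small intestine kept their direction and call under every alternative run. In small intestine the Wald test of DESeq2 called 2 members in place of 1, the added one being Lcn2. For the difference between tissues, filterByExpr and no filter on low counts each left 1 called member in place of 2 (Retnlg was lost, adjusted p = 0.0671 and 0.0814). There limma on log2(FPKM + 0.01) also lost Retnlg (0.0821) and added Cxcr2 (0.0308), and DESeq2 and limma on log2(FPKM + 1) each called 3 of the 5 tested members, adding Cxcr2 (0.00131 and 0.0135). Leaving out 1 library gave 2 to 4 called members in skin (2 without IMQ replicate 4 or IMQ replicate 5), 1 to 3 for the difference between tissues, 1 throughout in small intestine, and 4 to 5 between the control tissues. The direction turned for values that were never called: Trem1 in small intestine was 0.071 with limma on log2(FPKM + 0.01), and the difference between tissues of Csf3r was -0.36 with limma on log2(FPKM + 1). Without 1 library, log2 fold changes ran from -0.87 to 2.51 for Camp in skin without a filter, from -0.72 to 0.15 for Cxcr2, from -0.68 to 2.09 for Ltf and from -0.57 to 0.32 for Trem1 in small intestine, and from -2.89 to 0.090 for Ltf between tissues. The cause was not tested. Where an arm was left with 1 library, it was assumed to vary like the other groups. No paired analysis was possible because the library numbers run from 1 to 11 without repeating between groups. Depth limits Csf3, Ly6g, Camp, Ngp and Trem1, which had at most 279 counts in any library.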
